A study of Mus musculus with 12 samples.

Results

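The 26 genes described here encode the enzymes that turn acetyl-CoA into cholesterol, the proteins that sense sterol in the endoplasmic reticulum, and a pair of further genes of sterol handling. They were taken as the rows of the deposited expression table that carry their symbols, and all 26 were found among the 34348 genes of that table. Total RNA was sequenced from 2 tissues of C57BL/6 mice, small intestine and liver, after LCWE or after PBS. LCWE is the usual abbreviation for Lactobacillus casei cell wall extract, which is injected into mice to model Kawasaki disease vasculitis; the labels do not spell it out and give no dose, route, time or age. Each of the 4 groups (small intestine after PBS, small intestine after LCWE, liver after PBS, liver after LCWE) had 3 libraries, numbered 2, 3 and 4 after PBS and 1, 2 and 4 after LCWE. In the authors' table of differential genes the treated columns are named LCWECFA, and the labels do not explain the last 3 letters. No label says whether the libraries came from separate animals, so the p-values measure only the spread between these samples.

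Cholesterol is built from acetyl-CoA through mevalonate, the isoprenoids and squalene, which is closed into lanosterol and then trimmed and reduced to cholesterol. When sterol is scarce in the endoplasmic reticulum membrane, SCAP carries the transcription factor SREBP2 to the Golgi, where it is cleaved, and the freed part enters the nucleus and raises transcription of most of these enzymes. When sterol is plentiful, INSIG proteins hold SCAP back, and in the liver the pathway also answers to feeding and to sterol returning from the gut.

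SREBP2 binds short sterol regulatory elements, usually beside sites for NF-Y, which reads CCAAT boxes, and Sp1, which reads GC boxes. The upstream sequences of 3 of the 4 genes whose expression fell in liver are shown to place such letters on them. They come from RefSeq promoter entries (GRCm38.p6), run 5′ to 3′ along the gene's own strand, and end at the RefSeq start, or for Insig1 at the earlier start in the deposited table. Capitals mark the sterol regulatory element core CACNCCAC, the palindromic E-box CACGTG and the CCAAT box CCAAT, each also when read on the opposite strand (CCAAT then appears as ATTGG). The windows are chr13:119690101-119690350 (plus strand) for Hmgcs1, chr9:42264301-42264550 (minus strand) for Sc5d and chr5:28071162-28071362 (plus strand) for Insig1.
Hmgcs1: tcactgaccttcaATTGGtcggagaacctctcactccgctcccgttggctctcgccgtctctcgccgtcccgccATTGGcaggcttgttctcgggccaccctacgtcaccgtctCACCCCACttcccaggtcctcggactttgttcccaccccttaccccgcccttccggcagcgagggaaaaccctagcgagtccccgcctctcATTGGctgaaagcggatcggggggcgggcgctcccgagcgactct
Sc5d: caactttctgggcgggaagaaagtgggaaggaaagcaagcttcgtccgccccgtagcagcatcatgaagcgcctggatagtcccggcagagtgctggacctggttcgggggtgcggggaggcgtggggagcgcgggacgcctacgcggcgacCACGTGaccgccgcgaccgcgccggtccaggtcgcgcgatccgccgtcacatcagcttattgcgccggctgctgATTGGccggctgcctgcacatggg
Insig1: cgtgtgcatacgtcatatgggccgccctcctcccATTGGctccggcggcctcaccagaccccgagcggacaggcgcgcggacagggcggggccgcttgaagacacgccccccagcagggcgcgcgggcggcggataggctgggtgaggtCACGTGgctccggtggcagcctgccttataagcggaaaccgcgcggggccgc

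Of the 26 genes, 22 had an entry in the promoter table. Some genes had several starts, and a match before any of them counted for the gene. In the 250 bases before the start, a CCAAT box was present in 20 of these 22 genes (90.9%), against 37.5% of the 27025 genes with an entry and 39.9% of the 11099 that were also tested for expression. The GC box GGGCGG, searched on both strands, was also present in 20 of 22 (90.9%), against 35.4% of all genes and 59.2% of those tested. Counted by start, the CCAAT box was before 71.4% of the 28 starts of the members, against 33.8% of all starts. The GC box was before 78.6%, against 32.7%. The palindromic E-box CACGTG was found in Hsd17b7, Sc5d, Dhcr7, Scap and Insig1, which is 22.7% of the 22 genes, against 6.86% of all genes and 9.24% of those tested. The core CACNCCAC was found in Acat2, Hmgcs1 and Insig1 (13.6%), against 6.05% of all genes and 6.63% of those tested. Hmgcs1, shown above, holds 1 such core and 3 CCAAT boxes, the nearest of them 45 bases before the start. In Insig1 the core lies on the opposite strand 9 bases before the RefSeq start, past the stretch printed above. Cyp51, which also fell in liver and is not printed, had a CCAAT box 29 bases before the RefSeq start. Its window held neither the core nor the palindromic E-box. These matches of letters are a description of the windows. SREBP2 binding was not measured.

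As recovered from the RPKM, libraries held 30294594 to 40253006 reads assigned to genes in small intestine and 34741958 to 44921885 in liver. The members had between 199 and 29315 reads in a library. Values are RPKM, reads scaled to gene length and to the reads of the library, and differences are given on the log2(RPKM + 0.5) scale with the standard error. A gene is said to have risen or fallen where its adjusted p was below 0.05. Pearson correlations between libraries of a group, across genes, ran from 0.963 to 0.989. The tissue labels matched the marker genes: the 7 hepatocyte markers summed to 19901 to 34210 RPKM in the liver libraries and 148 to 317 in the small intestine libraries, and none was at 0. Whether the libraries kept strand is not given, and reads from overlapping genes therefore cannot be told apart. Exons of Cyp51, Fdft1, Scap, Lss, Ggps1 and Lbr overlap those of a gene on the opposite strand, those of Fdps, Tm7sf2 and Lbr overlap one on the same strand, and Acat2 has the near copy Acat3.

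In control liver, most of the pathway was expressed at a higher level than in control small intestine. Of the 26 genes, 19 were higher in liver and 5 lower, where 16.6% of 18619 genes tested were called higher and 60.5% lower. Hmgcs1, which makes HMG-CoA, led the order in both tissues, with a mean of 187 ± 25.0 RPKM in control liver and 79.3 ± 38.2 in control small intestine (SD, n = 3). RPKM is scaled to the exonic length given for each gene, which was 10787 bases for Lss and 1713 for Pmvk. That length may exceed the transcript present, and some exons overlap other genes. The order of levels between genes is therefore only rough.

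**Figure D1:**
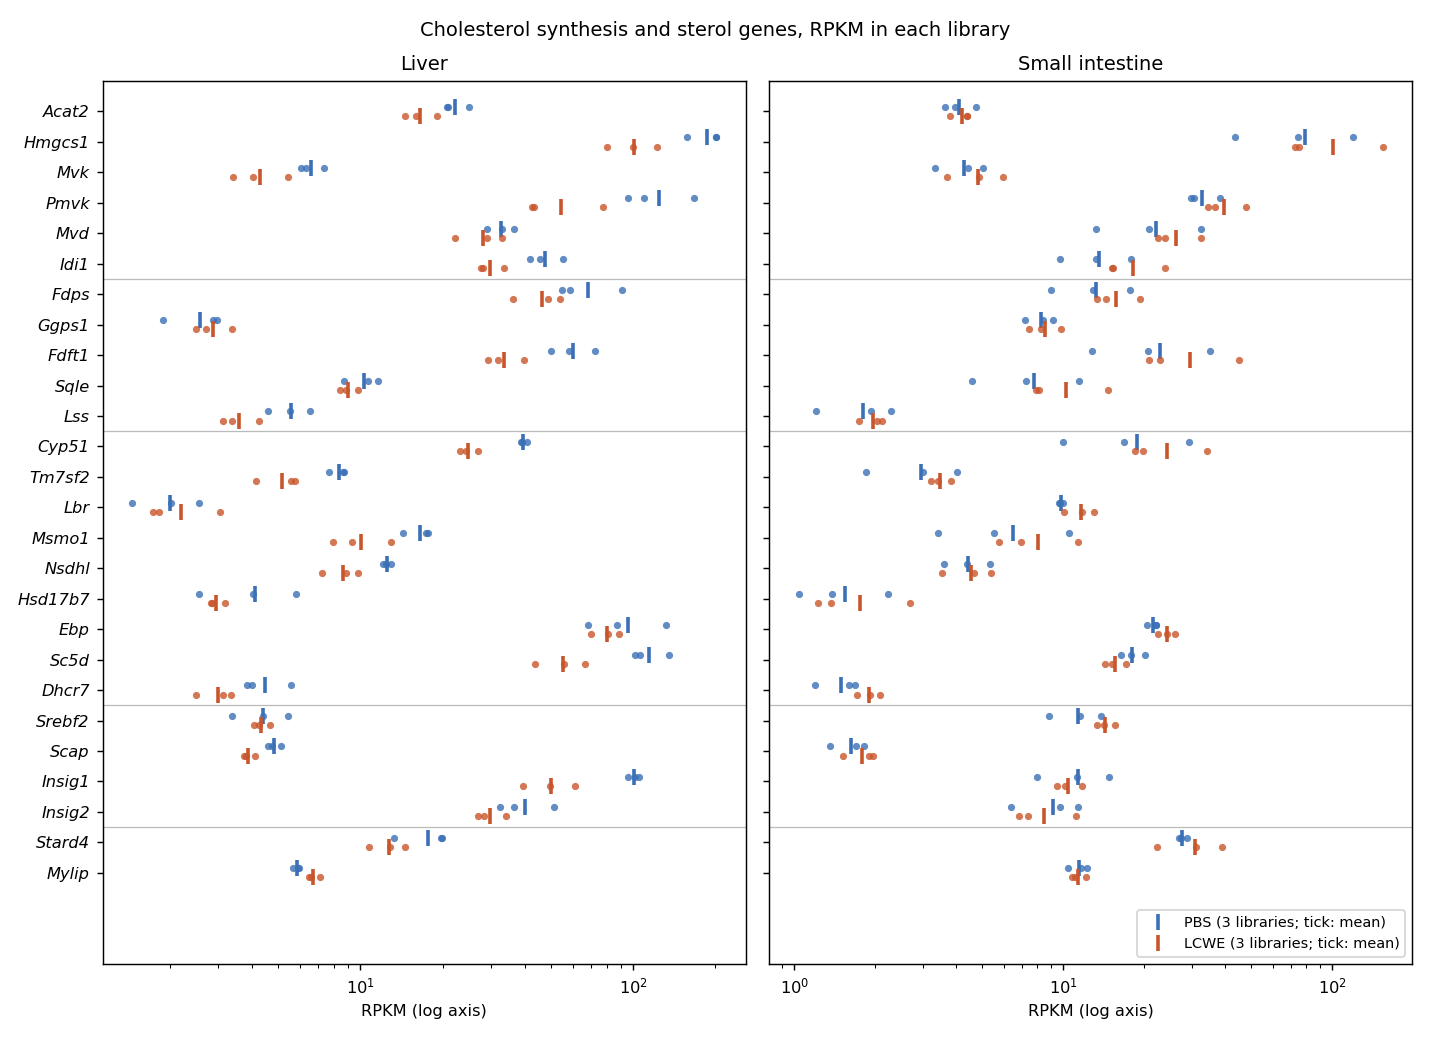
RPKM on a log axis for the 26 genes, by role, in liver (left) and small intestine (right); each point is 1 library, coloured by PBS or LCWE, and ticks mark group means. In liver, 16 genes have all LCWE points below all PBS points, and in small intestine the points of both groups mix for 23 of 26 genes.

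After Hmgcs1, the highest means in control liver were those of Pmvk at 124 ± 37.5, Sc5d at 114 ± 17.9, Insig1 at 101 ± 4.54 and Ebp at 96.0 ± 32.5 RPKM (SD, n = 3). These 4 means lay within each other's spread or close to it, whereas Hmgcs1 in its lowest control library, at 158 RPKM, was exceeded only by Pmvk in 1 library. The bottom of the order in liver was Lbr at 2.01 ± 0.557 and Ggps1 at 2.58 ± 0.607 RPKM. In small intestine Hmgcs1 was followed by Pmvk at 32.9 ± 4.72 and Stard4 at 27.7 ± 1.03, and Dhcr7 was lowest at 1.49 ± 0.261 RPKM.

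The largest difference between control tissues was that of Insig1, a retainer of SCAP in the endoplasmic reticulum, at 3.14 ± 0.20 higher in liver (adjusted p = 6.84e-08). Sc5d, the desaturase of the sterol ring, was higher by 2.62 ± 0.16, Fdps, which makes farnesyl diphosphate, by 2.34 ± 0.26, and Acat2, which joins acetyl-CoA units, by 2.31 ± 0.13. Insig2, the other SCAP retainer, was higher by 2.09 ± 0.24. SREBP2's own gene went the other way: Srebf2 was lower in liver by -1.28 ± 0.18 (adjusted p = 4.2e-05), while Scap was higher by 1.33 ± 0.12.

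The other 4 genes lower in liver were Lbr (-2.06 ± 0.20), Ggps1 (-1.52 ± 0.17), Mylip (-0.91 ± 0.09) and Stard4 (-0.66 ± 0.21). Lbr encodes a nuclear envelope protein that also reduces the sterol ring, and its relative with the same reductase activity, Tm7sf2, was higher in liver by 1.40 ± 0.21. Ggps1 makes geranylgeranyl diphosphate, which leaves the cholesterol route for protein prenylation. Sqle, the squalene epoxidase, and Mvd, the last step to isopentenyl diphosphate, differed by 0.46 ± 0.29 (adjusted p = 0.165) and 0.64 ± 0.28 (adjusted p = 0.0513) and did not pass. The median over the 26 genes was 1.37, against -0.69 over all genes tested. Scaling moved this contrast: the median of all genes moved up by 0.70 with quantile scaling and by 0.65 with median-ratio scaling, and the share of calls that were higher in liver went from 21.6% to 50.7% and 48.8%. Quantile and median-ratio scaling called 25 and 24 members, of which 23 and 22 were among the 24 called without them. Both scalings called Sqle (1.07 and 1.23) and Mvd (1.02 and 1.44) and lost Stard4 (-0.21 and 0.13), and median-ratio scaling also lost Mylip (-0.15, adjusted p = 0.282).

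**Figure D2:**
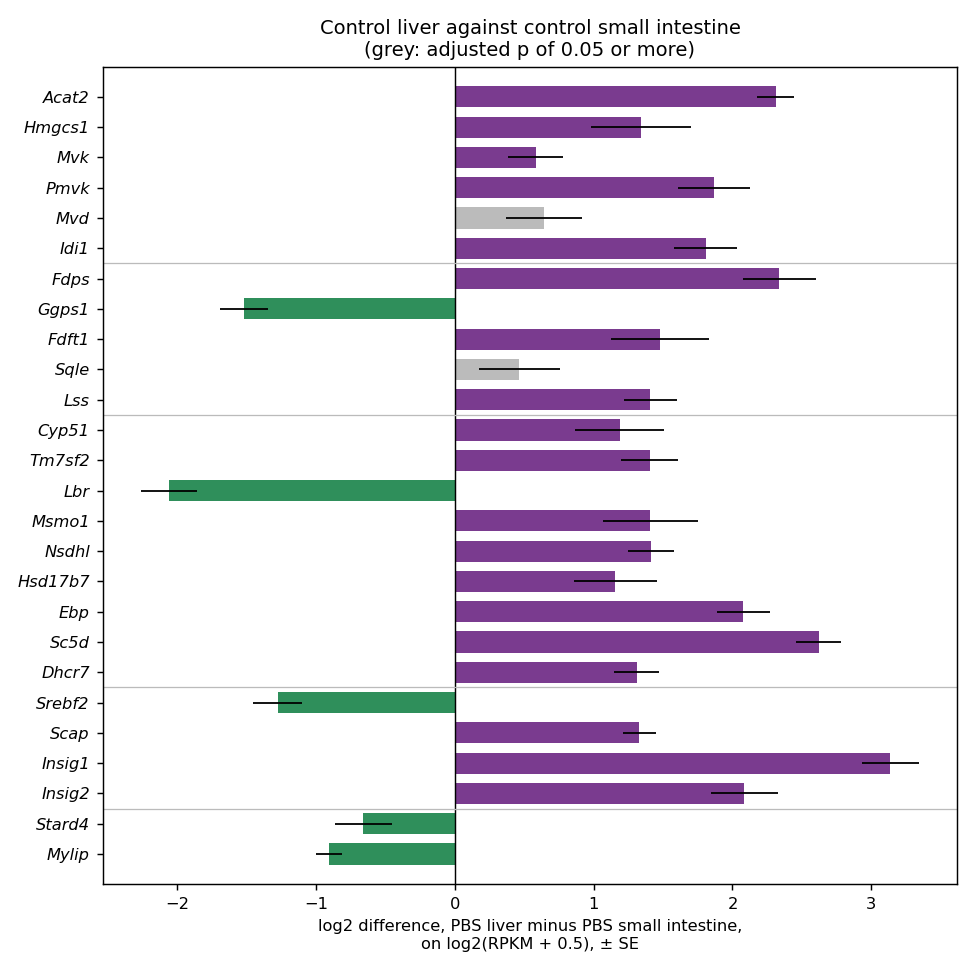
Log2 difference between control liver and control small intestine for each gene, with its standard error; purple bars are higher in liver, green bars lower, and grey bars did not pass. Insig1 extends farthest to the right at 3.14 and Lbr farthest to the left at -2.06.

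In the liver of LCWE mice, 4 of the 26 genes fell relative to PBS mice and none rose. Those that fell were Hmgcs1 at the start of the route, Cyp51 and Sc5d of the sterol ring steps, and the sensing gene Insig1. Among all 14404 genes tested in liver, 0.646% were called lower and 3.39% higher. The LCWE mean was below the PBS mean in 23 of 26 genes, against 39.8% of all genes, and the median of the differences was -0.51, against 0.06 for all genes. In 16 of 26 genes every LCWE library lay below every PBS library, against 8.84% of all genes, and 15 genes were lower at an unadjusted p under 0.05, against 5.82%. Liver is bulk tissue, so fewer cells of a type and less RNA per cell cannot be told apart.

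Of the 6 enzymes that carry acetyl-CoA to the isoprenoid units, all 6 had lower LCWE means and 1 fell. Hmgcs1 measured 201, 202 and 158 RPKM in the PBS livers and 122, 100 and 80.5 in the LCWE livers. The groups did not overlap, and the difference was -0.90 ± 0.18 (adjusted p = 0.0457). Pmvk, which adds the second phosphate to mevalonate, had the largest difference of the 26 genes. It measured 167, 95.8 and 110 RPKM after PBS and 43.3, 42.7 and 77.8 after LCWE, a difference of -1.19 ± 0.30 whose wide spread left it at an adjusted p of 0.0781. In the authors' deposited table, which lists 797 genes for liver at a p below 0.05 and at least a doubling or halving, Pmvk is the only one of the 26 genes, with a log2 fold change of -1.07, a p of 0.0152 and an FDR of 0.108.

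Idi1, which isomerises isopentenyl diphosphate, went from 42.0, 55.3 and 45.5 RPKM to 33.7, 27.6 and 28.0, with no overlap (-0.66 ± 0.14, adjusted p = 0.0531). Mvk, the mevalonate kinase, differed by -0.58 ± 0.17 and Acat2 by -0.42 ± 0.14, again without overlap of the groups. Mvd differed least in this group of enzymes. Its PBS livers measured 32.9, 36.5 and 29.1 RPKM and its LCWE livers 33.0, 22.3 and 29.2, which overlap (-0.23 ± 0.17, adjusted p = 0.519).

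None of the 5 genes between isopentenyl diphosphate and lanosterol passed. Fdft1, the squalene synthase, measured 72.2, 58.1 and 49.9 RPKM in PBS liver and 39.8, 29.5 and 31.8 in LCWE liver. Those groups did not overlap, and the difference was -0.82 ± 0.17 (adjusted p = 0.0538). Fdps differed by -0.54 ± 0.23 (adjusted p = 0.277) and Lss, which closes squalene epoxide into lanosterol, by -0.56 ± 0.17 (adjusted p = 0.127), both without overlap.

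Sqle sits between Fdft1 and Lss in the route, and its values overlapped. They were 11.6, 10.6 and 8.71 RPKM after PBS and 8.41, 8.85 and 9.82 after LCWE (-0.17 ± 0.13, adjusted p = 0.541). Ggps1, on the branch to prenylation, had a slightly higher LCWE mean, at 2.87 ± 0.469 against 2.58 ± 0.607 RPKM (SD, n = 3), and also overlapped.

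Of the 9 genes that process the sterol ring after lanosterol, 2 fell and 8 had lower means. Cyp51, which removes the first methyl group of lanosterol, had the tightest control values among those that fell. It measured 40.7, 39.2 and 38.7 RPKM after PBS and 27.0, 24.4 and 23.2 after LCWE, a difference of -0.66 ± 0.10 (adjusted p = 0.0187). Sc5d measured 135, 106 and 102 RPKM after PBS and 55.8, 43.7 and 66.9 after LCWE. Its lowest control library was thus well above its highest treated one, and the difference was -1.05 ± 0.18 (adjusted p = 0.0333).

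Tm7sf2 (-0.66 ± 0.14, adjusted p = 0.06), Msmo1, the C4-methyl oxidase (-0.71 ± 0.19, adjusted p = 0.0965), Nsdhl, the C4 decarboxylase (-0.52 ± 0.13, adjusted p = 0.077), and Dhcr7, the last reductase (-0.50 ± 0.17, adjusted p = 0.19), all had non-overlapping lower values without passing. Hsd17b7, the sterol ketoreductase, and Ebp, the sterol isomerase, overlapped, with differences of -0.36 ± 0.25 and -0.21 ± 0.24. Ebp's mean rested on 1 control library at 132 RPKM, the others being 68.6 and 87.5, and without that library the difference was 0.04. Lbr had a difference of 0.10 ± 0.24, which turned to -0.034 with quantile scaling.

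**Figure D3:**
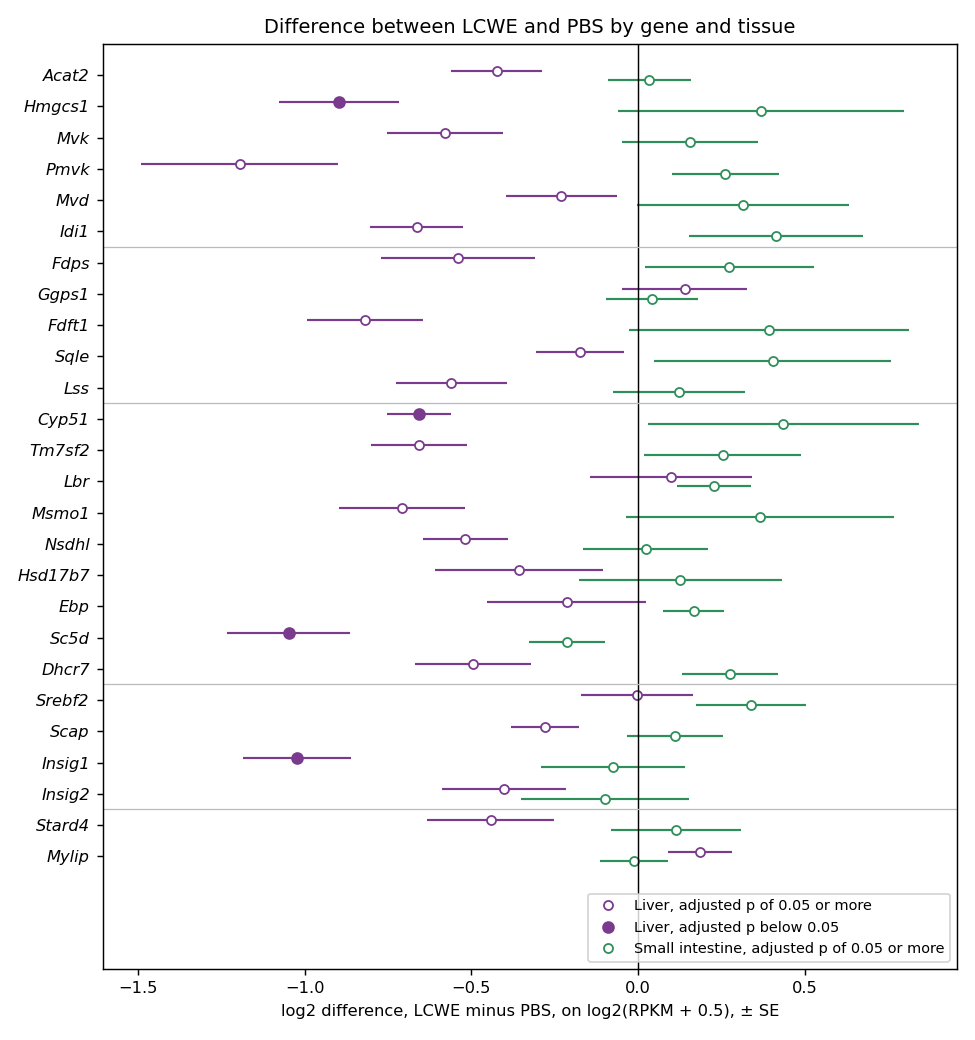
Log2 difference between LCWE and PBS, with its standard error, for each gene in liver (purple) and small intestine (green); filled points passed at an adjusted p below 0.05. The filled liver points are Hmgcs1, Cyp51, Sc5d and Insig1, and most green points lie to the right of 0 with wide bars.

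Among the 4 sensing genes, Insig1 fell and the others did not pass. Insig1 is itself a transcriptional target of SREBP2. It measured 95.8, 105 and 101 RPKM in the PBS livers and 49.6, 39.4 and 61.0 in the LCWE livers, a difference of -1.02 ± 0.16 (adjusted p = 0.0247). Insig2, its relative, measured 51.3, 36.7 and 32.5 against 28.5, 27.1 and 34.1 RPKM, which overlap (-0.40 ± 0.19, adjusted p = 0.313). Whether both genes differed from each other in this response was not tested.

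Srebf2 was at 4.40 ± 1.02 RPKM in PBS liver and 4.33 ± 0.306 in LCWE liver (SD, n = 3), a difference of -0.003 ± 0.17. Its sign changed between settings, to 0.003 with a weighted fit to the reads (limma voom). Scap, at 5.10, 4.76 and 4.58 against 3.74, 3.80 and 4.10 RPKM, did not overlap (-0.28 ± 0.10, adjusted p = 0.208). Of the remaining pair, Stard4, a cytosolic sterol carrier, differed by -0.44 ± 0.19 (adjusted p = 0.278). Mylip, the ubiquitin ligase that degrades lipoprotein receptors and is a target of the oxysterol receptors LXR rather than of SREBP2, was the only gene with all LCWE livers above all PBS livers, at 7.13, 6.47 and 6.56 against 5.95, 5.67 and 5.90 RPKM (0.19 ± 0.10, adjusted p = 0.363), where 18.7% of all genes were higher without overlap.

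The count of 4 depended on single libraries. Without LCWE liver 1, LCWE liver 2, PBS liver 3 or PBS liver 4, none of the 26 genes passed. Without LCWE liver 4, Sc5d and Insig1 did, and without PBS liver 2, Idi1, Cyp51, Sc5d and Insig1 did. Over these 6 fits the adjusted p ran from 0.0718 to 0.19 for Hmgcs1, 0.0197 to 0.114 for Cyp51, 0.0436 to 0.136 for Sc5d and 0.0299 to 0.113 for Insig1, while their differences ran from -1.05 to -0.74, -0.72 to -0.61, -1.19 to -0.89 and -1.18 to -0.86. The number of genes with a lower LCWE mean stayed between 22 and 24 of 26. With limma voom on the recovered whole reads, 7 of the 26 passed: the 4 above with Idi1, Fdft1 and Tm7sf2.

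Markers of inflammatory cells were higher in the LCWE livers. The 7 monocyte and macrophage markers summed to 128 to 181 RPKM after PBS and 332 to 600 after LCWE, and the 7 neutrophil markers to 1.60 to 4.55 and 16.7 to 33.8, with no marker of either list at 0 in all libraries of a group. The hepatocyte marker sum was 22344 to 34210 RPKM after PBS and 19901 to 22563 after LCWE, with its highest value in PBS liver 2. The part of these markers in the differences above was not tested. Without PBS liver 2 the median difference of the 26 genes was -0.47.

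In the small intestine no gene of the pathway passed, and none reached an unadjusted p under 0.05, where 12.6% of 17510 genes tested did. At an adjusted p below 0.05 the limma test called 0% of all genes in this tissue, and limma voom called 0. The LCWE mean was higher in 22 of 26 genes, against 69.0% of all genes, and the median difference was 0.20, against 0.11 for all genes. Only Lbr, Ebp and Dhcr7 had all LCWE libraries above all PBS libraries, where 13.2% of all genes did, and the smallest adjusted p of the 26 was 0.444.

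Libraries within a group also differed across the members in both tissues. In liver, LCWE library 2 was the lowest of its group in 18 of 26 genes and LCWE library 4 the highest in 16. PBS liver 2 was the highest of its group in 15 and PBS liver 4 the lowest in 13. The small intestine libraries differed as follows. PBS intestine 2 was the lowest of the 3 control libraries in 25 of 26 genes and PBS intestine 4 the highest in 21. Cyp51 measured 9.93, 16.9 and 29.4 RPKM in PBS intestine 2, 3 and 4. Msmo1 measured 3.42, 5.50 and 10.5 RPKM in the same libraries, the widest ratio of highest to lowest, at 3.06. Hmgcs1 (43.6, 74.7 and 120 RPKM) and Fdft1 (12.7, 20.6 and 35.1 RPKM) had ratios of 2.74 and 2.75. Dhcr7, the last reductase, and Sc5d had the same order of these libraries with smaller ratios, 1.41 and 1.23. The same libraries thus ranked alike in these genes from the start, the middle and the end of the route.

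Some members did not share this spread. Lbr, at 9.75, 10.0 and 9.64 RPKM, had a ratio of 1.04, Stard4 one of 1.07 and Ebp one of 1.08. After LCWE, library 1 was the highest in 20 of 26 genes, with Hmgcs1 at 155 RPKM against 75.5 and 72.4 in the others. Over the 26 genes, the median deviation from the PBS mean was -0.35, 0.03 and 0.30 in PBS intestine 2, 3 and 4, and 0.41, 0.09 and 0.15 in LCWE intestine 1, 2 and 4. Over all genes tested the corresponding medians lay between -0.03 and 0.17.

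**Figure D4:**
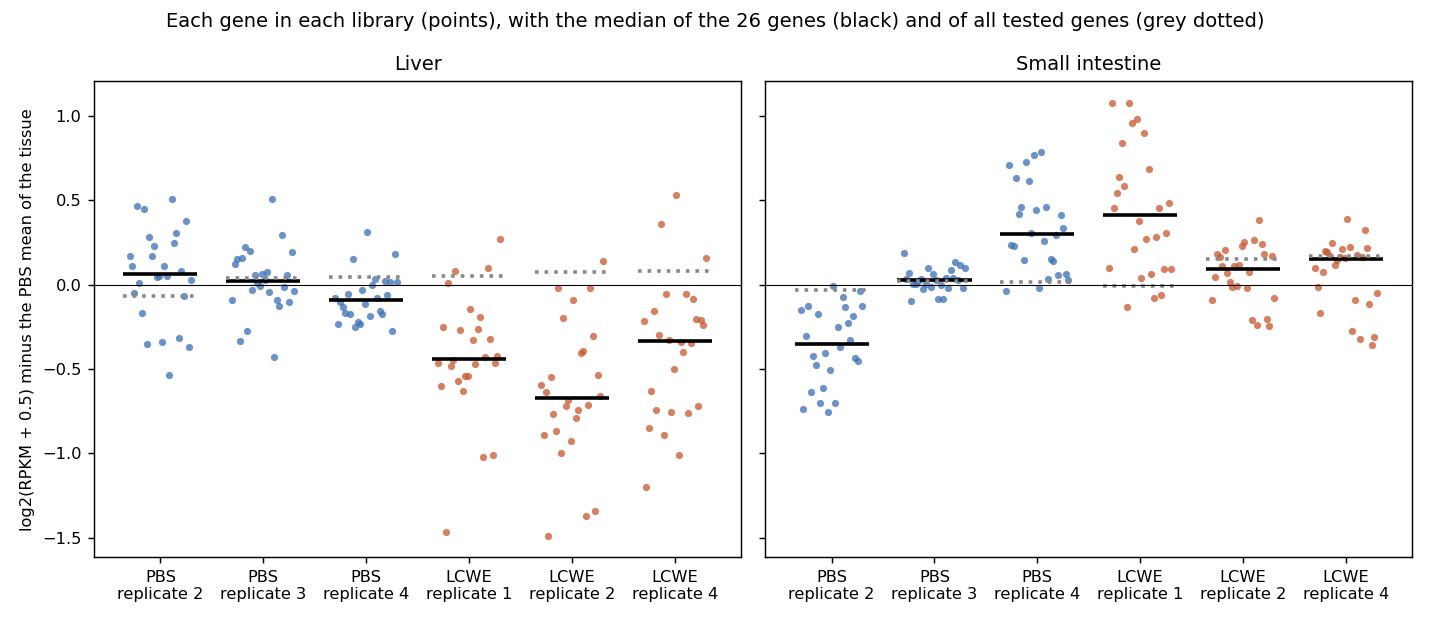
Deviation of each gene from the mean of the PBS libraries of its tissue, on the log2 scale, by library; points are genes, black lines mark the medians of the 26 genes and dotted lines those of all genes tested. The LCWE livers have medians of -0.44, -0.67 and -0.34, whereas the control intestine libraries alone spread from -0.35 to 0.30.

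Without PBS intestine 2 the median LCWE difference of the 26 genes in the small intestine was 0.01, and 10 genes then had a lower LCWE mean. Without PBS intestine 4 the median was 0.31. Enterocyte markers differed across the same libraries. The 8 of them summed to 18435, 14218 and 9131 RPKM in PBS intestine 2, 3 and 4, and to 6070, 4234 and 1802 in LCWE intestine 1, 2 and 4, with none at 0. The 5 adipocyte markers summed to 38.0, 58.9 and 71.9 RPKM in the PBS libraries and 16.1, 9.68 and 8.60 in the LCWE libraries. The part of either list in the values above was not tested.

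Sc5d, Insig1, Insig2 and Mylip were the genes with a lower LCWE mean in the small intestine. Sc5d measured 16.4, 17.8 and 20.1 RPKM after PBS and 17.0, 15.2 and 14.3 after LCWE (-0.21 ± 0.11, adjusted p = 0.46), and for the other 3 the difference was between -0.10 and -0.01. Srebf2 measured 8.82, 11.5 and 13.8 against 15.5, 13.3 and 14.1 RPKM (0.34 ± 0.17, adjusted p = 0.444). The groups overlapped in both genes.

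Whether LCWE acted differently in liver and small intestine was tested as the difference of its effects. The liver effect was the lower one in 24 of 26 genes, against 51.5% of all genes, with a median of -0.63 against -0.01. No member passed at an adjusted p below 0.05, where 0.736% of 18619 genes did, and 15 were lower at an unadjusted p under 0.05, against 5.51% of all genes. Pmvk had the smallest adjusted p, 0.0947, at -1.46 ± 0.36, followed by Sc5d (-0.84 ± 0.23, adjusted p = 0.123), Dhcr7 (-0.77 ± 0.23, adjusted p = 0.154), Idi1 (-1.08 ± 0.32, adjusted p = 0.155) and Insig1 (-0.95 ± 0.29, adjusted p = 0.17). Pmvk passed in 1 of the 12 fits that leave out a library, without LCWE liver 4 (-1.74, adjusted p = 0.0438), and the other 11 gave 0.103 to 0.223. The wide spread in small intestine enters this test: Hmgcs1 differed by -1.27 with a standard error of 0.51.

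Genes around the pathway were counted from 4 further lists. Of the genes that supply acetyl-CoA, 7 were tested in liver, all 7 had lower LCWE means and none passed. Over all genes tested in liver, 39.8% had lower LCWE means. Acly, the citrate lyase of the cytosol, measured 65.0, 49.7 and 57.8 RPKM after PBS and 24.4, 21.9 and 48.1 after LCWE (-0.94 ± 0.29, adjusted p = 0.146). It passed in 1 of the 6 fits that leave out a library, without LCWE liver 4 (adjusted p = 0.0299), and the others gave 0.202 to 0.415. Slc25a1, the mitochondrial citrate carrier, differed by -0.41 ± 0.11 and Acat1, the mitochondrial thiolase, by -0.39 ± 0.12. In small intestine 8 were tested and none passed. Acat3 differed there by 0.29 ± 0.13 and Acly by 0.27 ± 0.15.

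Of 14 genes for SREBP processing and sterol-regulated degradation tested in liver, 1 rose and none fell. Among all genes tested in liver, 3.39% rose and 0.646% fell. The gene of this list that rose, Hsp90b1, encodes the chaperone GRP94 of the endoplasmic reticulum, whose clients reach far beyond this pathway. It rose from 799, 781 and 874 RPKM to 1914, 1777 and 1572 (1.10 ± 0.12, adjusted p = 0.00835), and without LCWE liver 2 its adjusted p was 0.0619. Srebf1, the gene of the lipogenic relative of SREBP2, measured 19.8, 12.1 and 12.3 RPKM after PBS and 7.95, 7.42 and 7.85 after LCWE without overlap (-0.85 ± 0.19, adjusted p = 0.066). It passed in 1 of the 6 fits that leave out a library, without PBS liver 2, its highest (-0.62, adjusted p = 0.0151), and the others gave 0.104 to 0.242. Pgrmc1, a haem-binding membrane protein, differed by -0.22 ± 0.09. In small intestine 0 of 15 passed, and the 3 with the smallest p-values were Rnf145, a sterol-responsive ubiquitin ligase (0.69 ± 0.14), Hsp90b1 (0.57 ± 0.16) and Vcp, an extraction ATPase (0.21 ± 0.09).

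On the branches from farnesyl and geranylgeranyl diphosphate, 12 genes were tested in liver and 13 in small intestine, and none passed in either. The smallest p-values in liver were those of Nus1 (0.39 ± 0.11) and Dhdds (0.49 ± 0.14), the subunits of the dolichol-forming transferase, and of Pggt1b, a prenyltransferase subunit (0.43 ± 0.19). In small intestine they were those of Rce1 (0.45 ± 0.15) and Zmpste24 (0.22 ± 0.08), which trim prenylated proteins, and Nus1 (0.24 ± 0.10). All of these differences were positive, but they are those picked by the smallest p-values. Over the whole list, the LCWE mean was higher in 8 genes and lower in 4 in liver. In small intestine it was higher in 11 of 13 genes, against 69.0% of all genes. The median difference of the list in liver was 0.05, against 0.06 for all genes.

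Of 19 genes of sterol storage, movement and oxysterols tested in liver, 1 rose and 1 fell. Among all genes tested in liver, 3.39% rose and 0.646% fell. Soat1, which esterifies cholesterol for storage, rose from 0.43, 0.533 and 0.618 RPKM to 1.11, 1.14 and 1.25 (0.70 ± 0.12, adjusted p = 0.0352). Its PBS values lay about the filter of 0.5 RPKM, which it passed only with the help of the LCWE libraries. They were also close to the added 0.5, and over the alternative settings the Soat1 difference ran from 0.51 to 1.16. Abcg8, a subunit of the transporter that exports sterol into bile, fell from 7.76, 8.93 and 7.54 RPKM to 5.18, 4.48 and 5.36 (-0.64 ± 0.12, adjusted p = 0.0381). Both calls held without PBS liver 2 and were lost without each of the other 5 livers in turn, with adjusted p up to 0.153 and 0.183. Osbp, an oxysterol-binding protein, differed by 0.65 ± 0.14 (adjusted p = 0.0559), and it passed without PBS liver 2 (0.0473) or PBS liver 4 (0.0475), while leaving out each of the other 4 livers gave 0.15 to 0.203.

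In small intestine 21 genes of that list were tested and none passed. The smallest p-values were those of Gramd1c (-1.21 ± 0.21, adjusted p = 0.186) and Gramd1b (-0.88 ± 0.21, adjusted p = 0.235), both carriers of sterol from the plasma membrane to the endoplasmic reticulum, and Abcg5, the partner of Abcg8 (-0.76 ± 0.19, adjusted p = 0.242). Gramd1c measured 6.09, 5.09 and 4.34 RPKM after PBS and 2.19, 2.44 and 1.32 after LCWE. In liver it was at 6.21, 7.35 and 7.02 against 7.92, 7.89 and 7.38 RPKM. The LCWE effects on Gramd1c differed between the tissues by 1.37 ± 0.24 (adjusted p = 0.0307, liver minus intestine). In that test 1 of 21 genes of the list passed, where 0.736% of all genes did. Over the 12 fits that leave out a library its adjusted p ran from 0.026 to 0.0917, with 3 of 12 passing. The enterocyte marker sums given above were also lower in the LCWE libraries of small intestine, and their part in this difference was not tested.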

How the data were processed

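The deposited values are RPKM per gene and library made by the authors; 12 of the 16 library columns of that table matched samples by name and were used, and 4 were not used. The submitters' processing notes give the build mm10 and, with no role for any of them, edgeR 3.12.1, Subread 1.5.1, featureCounts and Trimmomatic 0.36. Which program aligned the reads is not stated in the sources used here. The deposited RPKM was multiplied by gene length and divided by the smallest such product above 0 in the library, taken as that of a single read. The result was a whole number for 100% of values (tolerance 0.001). The reads given for a library are the sums of these numbers over genes. The authors' deposited table of differential genes gives p-values and log2 fold changes for 1001 genes; its 12 library columns were not used.

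A gene entered a fit where 3 or more of its libraries reached an RPKM of 0.5. Tests used limma 3.58.1 (R 4.3.3) on the log2 scale after adding 0.5 to each RPKM, with 6 libraries for each LCWE comparison and all 12 for the tissue comparison and the difference of effects, and Benjamini-Hochberg adjustment over all genes tested. All 26 members passed the filter in every comparison. The fits were tested on simulated data that had the same spread for all genes, narrower than that of many members in small intestine. That test therefore does not tell how well the fits do on these data. An exact permutation test of 3 against 3 cannot go below 0.1.

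All 26 members are accounted for, and of each further list the 3 genes with the smallest unadjusted p in each tissue are named, except 1 that is not reported here; Gramd1c's difference between tissues was singled out after its value was seen. Members and lists were chosen with earlier results of these data known. Alternatives were other pseudocounts, filters, scalings and fits, a block on the replicate number and leaving out each library. Gene positions, lengths and overlaps are those given in the deposited expression table. All 26 members were found in GENCODE M21 on the same chromosome and strand, at an overlapping position.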

Additional observations from a re-analysis of the deposited data

Results flagged for a closer look

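The LCWE effect on Gramd1c, a sterol carrier gene of the storage and movement list, differed between the tissues in the test of the difference itself, by 1.37 on the log2 scale (liver minus small intestine, adjusted p = 0.0307 with limma). The effect was 0.16 in liver and -1.21 in small intestine, where all 3 LCWE libraries lay below all 3 PBS libraries. Neither effect passed on its own, with adjusted p of 0.47 and 0.186. The 26 genes of the synthesis pathway gave no such difference at an adjusted p below 0.05.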

How the results depend on the processing

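With alternative settings, the number of the 26 genes called in liver (4) was 1 without a filter on low values (335 genes in all instead of 582), 7 with limma voom (730 in all), and 0 to 4 when 1 library was left out (55 to 943 in all). One fit over the 4 groups called 3 (898 in all), Pmvk, Sc5d and Insig1, without Hmgcs1 and Cyp51. Hmgcs1 was also lost with a pseudocount of 0.1, quantile scaling and median-ratio scaling (adjusted p = 0.0507, 0.0677 and 0.0539), where Cyp51, Sc5d and Insig1 passed, and median-ratio scaling also called Idi1. In liver as a whole, the split of 489 higher and 93 lower genes was 342 and 123 with quantile scaling and 353 and 125 with median-ratio scaling. Small intestine gave 0 members in every setting, although 213 genes passed in the fit over 4 groups and up to 70 with a library left out. The difference between tissues gave 0 to 1 members on leaving out a library (20 to 461 genes in all), and 206 genes with median-ratio scaling instead of 137. The control tissue count was 23 to 26.

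Whether the replicate numbers pair samples is not given by the labels. Deviations of same-numbered libraries correlated at -0.10 and -0.05 in liver and 0.09 and 0.12 in small intestine. Libraries with other numbers gave -0.12 to 0.12 in liver and -0.17 to 0.09 in small intestine. Across the tissues, same-numbered libraries gave -0.05 to 0.08. Only numbers 2 and 4 occur in both groups of a tissue and libraries are few, so these correlations cannot decide pairing. With the replicate block, 0 of the 26 genes passed in liver (24 of all genes), 0 in small intestine and in the difference (12 of all genes), and 25 between control tissues. Within a tissue the LCWE effect in this fit rests on numbers 2 and 4 only, which lowers its power. The median difference of the 26 genes in liver was -0.54 with the block and -0.51 without it.

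Signs turned for small differences. In small intestine, quantile and median-ratio scaling turned Acat2 (-0.063 and -0.070), Ggps1 (-0.023 and -0.070) and Nsdhl (-0.079 and -0.081), median-ratio scaling turned Stard4 (-0.0014), and the replicate block turned Nsdhl (-0.10), Stard4 (-0.080) and Hsd17b7 (-0.19). In liver, quantile scaling turned Lbr (-0.034), voom turned Srebf2 (0.0033) and the replicate block turned Srebf2 (0.095). Stard4 between control tissues was 0.13 with median-ratio scaling. Leaving out each library in turn also turned signs. In liver the range was -0.036 to 0.24 for Ggps1, -0.12 to 0.25 for Lbr, -0.43 to 0.040 for Ebp and -0.16 to 0.14 for Srebf2. In small intestine it was -0.041 to 0.13 for Acat2, -0.0030 to 0.63 for Mvd, -0.060 to 0.13 for Ggps1, -0.082 to 0.28 for Lss, -0.10 to 0.17 for Nsdhl, -0.15 to 0.36 for Hsd17b7, -0.076 to 0.036 for Mylip, -0.29 to 0.13 for Insig1, -0.33 to 0.067 for Insig2 and -0.070 to 0.33 for Stard4. For the difference between tissues it was -0.077 to 0.20 for Ggps1 and -0.34 to 0.028 for Lbr. The cause of these turns was not tested. Every member had at least 199 reads in each library, and 3 libraries in a group limit the precision.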
